A study of Mus musculus with 20 samples.

Results

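The genes described here are 10 transcripts of the NRF2 antioxidant response in mouse kidney, namely Nfe2l2, Keap1, Slc7a11, Gclc, Gclm, Txnrd1, Srxn1, G6pdx, Nqo1 and Osgin1. They were taken by symbol from a table of 55822 genes, and each symbol matched 1 row. Poly(A) RNA of kidney tissue was sequenced from male C57BL/6J mice aged 8 weeks, with 5 libraries in each of 4 labelled groups. The control group received PBS, and the puberulic acid group received 1 mg per day of that compound, a tropolone made by some Penicillium moulds. Both groups had 6 daily administrations and were sampled on day 7, after a day without dosing. The remaining groups received 1000 mg per day of a normal or a toxic lot of the supplement Choleste-Help, and the 10 columns that could hold them are not used here, because their names do not say which lot they are. The route is given as oral in one label and as gavage or intraperitoneal injection in another, so the route of each mouse is not known.

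NRF2, encoded by Nfe2l2, is a transcription factor that switches on detoxifying and antioxidant enzymes. Under basal conditions the adaptor KEAP1 holds it in a CUL3 ubiquitin ligase complex that sends it to the proteasome, and reactive electrophiles or oxidants modify cysteines of KEAP1 so that NRF2 accumulates, pairs with a small MAF protein and binds antioxidant response elements (AREs). Because this switch acts on the protein, transcript levels do not measure the amount of NRF2 in the nucleus. The kidney proximal tubule reabsorbs and concentrates many toxicants and has a high glutathione turnover.

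The response was split. Srxn1, Slc7a11, Nfe2l2, Txnrd1 and G6pdx rose with puberulic acid, Keap1 fell, and Nqo1, Gclc, Gclm and Osgin1 did not pass the test. In numbers, edgeR's quasi-likelihood test called 6 of the 10 genes, 5 higher and 1 lower, at a Benjamini-Hochberg adjusted p under 0.05. The background was high, since 65.3% of all 16266 tested genes were called, 34.2% higher and 31.1% lower, so the number of calls does not set these 10 genes apart. Control and treated CPM ranges were apart for 6 of the 10 genes and for 50.1% of all tested genes. The median log2 fold change was 0.44 over the 10 genes and 0.05 over all tested genes. Slc7a11 passed the filter on low counts only through the treated libraries, and of the other 9 genes 4 were called higher and 1 lower, with a median of -0.04, a choice made after its counts were seen.

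Levels below are in CPM, the counts of a gene scaled to a common library size after edgeR's TMM correction (trimmed mean of M-values), and changes are relative to that scaling. Scaling to total counts instead moved the median change over all tested genes, in log2, from 0.05 to 0.56. At that scaling 7 of the 10 genes were called higher and 0 lower, against 56.4% and 15.5% of all tested genes. Estimated counts summed to between 18409877 and 24705587 per library, and 9 of the 10 genes had at least 100 counts in every library.

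**Figure D1:**
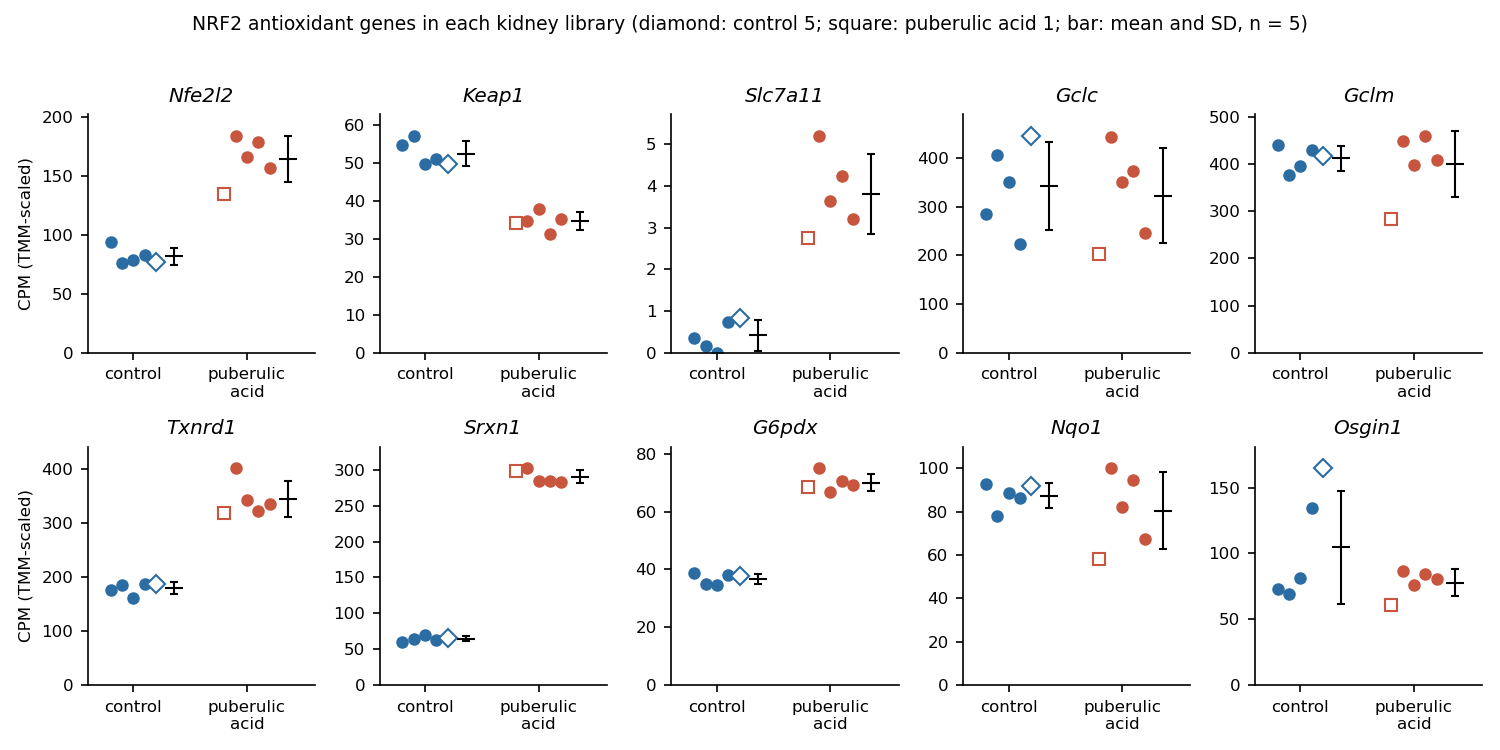
Level of each gene (vertical axis, CPM, starting at 0) in 5 control and 5 puberulic acid libraries, 1 point per library, with the mean and SD beside each group. The diamond is control 5 and the open square is puberulic acid 1. The groups are apart for Nfe2l2, Keap1, Slc7a11, Txnrd1, Srxn1 and G6pdx and overlap for Gclc, Gclm, Nqo1 and Osgin1.

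Sequence at the gene starts is shown first, because the genes are grouped by a factor that binds a known motif. RefSeq promoter windows of 300 bases (250 before and 50 after the start, build GRCm38.p6) were present for 9 of the 10 genes, and Gclc had none in the table. The ARE core was searched as TGACNNNGC, and the AP-1 motif, which resembles it, as TGANTCA, each on both strands. The ARE core was found in a window of 5 of these 9 genes and in 14.0% of all 27025 genes with a window. The AP-1 motif was found for 2 of the 9 genes and for 8.97% of all genes. None of the AP-1 matches in the 9 genes overlapped an ARE core match. A match is a description of letters. AREs that lie farther from the start than the window were not searched, nor were variants that differ from the pattern at a fixed base.

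The stretches below are written along the gene's own strand with the matched motif in capitals. They are the matches before the start in the 3 genes that rose and had an ARE core there, and in Gclm, which had such a match and did not pass the test. The AP-1 matches of Srxn1 are added, which rose with no match of the searched ARE pattern before its start.
G6pdx, ARE core read on the opposite strand, chrX:74428919-74428947, minus strand: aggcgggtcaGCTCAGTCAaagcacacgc
Txnrd1, ARE core read on the opposite strand, chr10:82859089-82859147, plus strand: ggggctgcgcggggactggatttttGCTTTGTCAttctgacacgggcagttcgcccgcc
Nfe2l2, ARE core, chr2:75704885-75704913, minus strand: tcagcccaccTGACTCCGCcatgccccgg
Gclm, ARE core read on the opposite strand, chr3:122245398-122245456, plus strand: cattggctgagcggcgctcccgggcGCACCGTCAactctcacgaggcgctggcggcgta
Srxn1, AP-1, chr2:152105397-152105453, plus strand: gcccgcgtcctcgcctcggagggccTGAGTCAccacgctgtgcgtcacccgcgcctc
Srxn1, AP-1, chr2:152105454-152105510, plus strand: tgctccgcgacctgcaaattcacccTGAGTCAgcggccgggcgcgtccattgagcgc

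The last motif base lay 49 bases before the start in G6pdx, 84 in Txnrd1, 232 in Nfe2l2 and 126 in Gclm. In Srxn1 the AP-1 matches ended 96 and 39 bases before the start, and its ARE core match, across or after the start, is not printed. The nearer AP-1 match continues as TGAGTCAgc, which differs from the searched ARE core only by a G in place of the C. In the GENCODE vM21 annotation of the same assembly, the stretches of Gclm and Srxn1 lie outside any gene, that of Txnrd1 is intronic to longer Txnrd1 transcripts, that of G6pdx touches an exon of another G6pdx transcript and lies within Ikbkg on the opposite strand, and that of Nfe2l2 touches an exon of E030042O20Rik on the opposite strand. The Txnrd1 match is in 1 of 3 start windows listed for that gene. Osgin1 had 1 AP-1 match and no ARE core match, and no match of either motif was found in the windows of Keap1, Nqo1 and Slc7a11. Genes with an ARE core match were thus found both among those that rose and among those that did not pass the test.

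Nfe2l2 (ENSMUSG00000015839) encodes NRF2 itself. Its level in control replicates 1 to 5 was 94.3, 76.1, 79.2, 82.8 and 77.1 CPM, and in puberulic acid replicates 1 to 5 it was 135, 184, 167, 179 and 157 CPM. The lowest treated library, replicate 1, lay above the highest control. The log2 fold change was 1.00 ± 0.10 (SE, edgeR adjusted p = 4.09e-06), or 2.01-fold, and the mean went from 81.9 ± 7.41 to 164 ± 19.5 CPM (SD over 5 libraries).

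Keap1 (ENSMUSG00000003308) encodes the sensor that holds NRF2 for degradation. Control replicates 1 to 5 had 54.8, 57.1, 49.8, 50.9 and 49.6 CPM, and puberulic acid replicates 1 to 5 had 34.2, 34.8, 37.9, 31.3 and 35.2 CPM. Every treated library lay below every control, and the log2 fold change was -0.60 ± 0.08 (SE, edgeR adjusted p = 3.11e-05). Keap1 was the one gene of the 10 whose call was lost with total-count scaling, where its log2 fold change was -0.09 (adjusted p = 0.355) and the ranges overlapped.

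The ratio of Keap1 to Nfe2l2 within a library does not depend on how libraries are scaled. Its log2 value was -0.78, -0.41, -0.67, -0.70 and -0.64 in control replicates 1 to 5, and -1.98, -2.40, -2.13, -2.52 and -2.16 in puberulic acid replicates 1 to 5. The sensor transcript therefore fell relative to that of the factor in all 5 treated libraries, and the groups did not overlap. The difference was -1.60 (exact two-sided permutation p = 0.00794, the smallest that 5 against 5 allows, adjusted p = 0.0119 over 3 ratios), from 0.641 to 0.212 Keap1 counts per Nfe2l2 count.

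Glutathione synthesis needs cystine, which SLC7A11 imports, and glutamate-cysteine ligase, whose catalytic subunit is GCLC and whose modifier subunit is GCLM. Slc7a11 (ENSMUSG00000027737) was close to the limit of detection in control libraries, where replicates 1 to 5 had 0.342, 0.158, 0, 0.748 and 0.844 CPM, from estimated counts of 0 to 12.5. With puberulic acid they had 2.75, 5.20, 3.64, 4.24 and 3.21 CPM, from at least 73.5 estimated counts. All treated libraries lay above all controls, and the log2 fold change was 3.19 ± 0.54 (SE, edgeR adjusted p = 0.000247). Because the gene passed the filter through the treated group, its call there carries little; a fit with no filter gave 3.18 (adjusted p = 8.52e-05). The size of the fold rests on few control counts, with a 95% interval from 4.03 to 20.6-fold. In the control libraries 3 counts are worth between 0.158 and 0.195 CPM.

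Gclc (ENSMUSG00000032350) varied widely between libraries in both groups. Control replicates 1 to 5 had 284, 407, 351, 223 and 445 CPM, and puberulic acid replicates 1 to 5 had 202, 442, 350, 373 and 245 CPM. The ranges nearly coincided, and the log2 fold change was -0.08 ± 0.23 (SE, edgeR adjusted p = 0.764), with a 95% interval from -0.59 to 0.42. The interval leaves room for a change of up to 1.34-fold upward or to 0.665 of the control level.

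Gclm (ENSMUSG00000028124) was steadier. It had 440, 376, 395, 430 and 416 CPM in control replicates 1 to 5 and 283, 448, 397, 459 and 409 CPM in puberulic acid replicates 1 to 5. Only puberulic acid 1 lay outside the control range on the low side, while replicates 2 and 4 lay above it, and the log2 fold change was -0.04 ± 0.12 (SE, edgeR adjusted p = 0.766, 95% interval -0.31 to 0.22). Total-count scaling turned it to 0.47 (adjusted p = 0.00499), which is below the 0.56 that this scaling gives the median gene.

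The ratio of Gclm to Gclc counts within a library was 1.55, 0.926, 1.12, 1.93 and 0.935 in control replicates 1 to 5. It was 1.40, 1.01, 1.13, 1.23 and 1.67 in puberulic acid replicates 1 to 5. The balance of the 2 subunit transcripts differed by less than the spread of the libraries, with a log2 difference of 0.04 (exact two-sided permutation p = 0.897, adjusted p = 0.897).

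Srxn1 (ENSMUSG00000032802) encodes sulfiredoxin, which restores over-oxidised peroxiredoxins. It had 60.0, 64.3, 69.5, 62.3 and 66.0 CPM in control replicates 1 to 5, and 299, 302, 285, 284 and 283 CPM in puberulic acid replicates 1 to 5. The treated libraries were tightly grouped, including replicate 1, and far above all controls. The log2 fold change was 2.17 ± 0.07 (SE, edgeR adjusted p = 1.69e-09), or 4.51-fold with a 95% interval from 4.04 to 5.04.

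Txnrd1 (ENSMUSG00000020250) encodes the cytosolic thioredoxin reductase, a selenoprotein that uses NADPH to keep thioredoxin reduced. It had 176, 185, 161, 188 and 188 CPM in control replicates 1 to 5, and 319, 401, 342, 322 and 335 CPM in puberulic acid replicates 1 to 5. The groups did not overlap, and puberulic acid 2 stood above the other 4 treated libraries. The log2 fold change was 0.94 ± 0.09 (SE, edgeR adjusted p = 2.28e-06).

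The rise of Srxn1 exceeded that of Txnrd1. The log2 ratio of Txnrd1 to Srxn1 counts was 1.55, 1.52, 1.21, 1.59 and 1.51 in control replicates 1 to 5, and 0.09, 0.41, 0.26, 0.18 and 0.24 in puberulic acid replicates 1 to 5. All treated values lay below all control values, and the difference was -1.24 (exact two-sided permutation p = 0.00794, adjusted p = 0.0119 over 3 ratios).

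**Figure D2:**
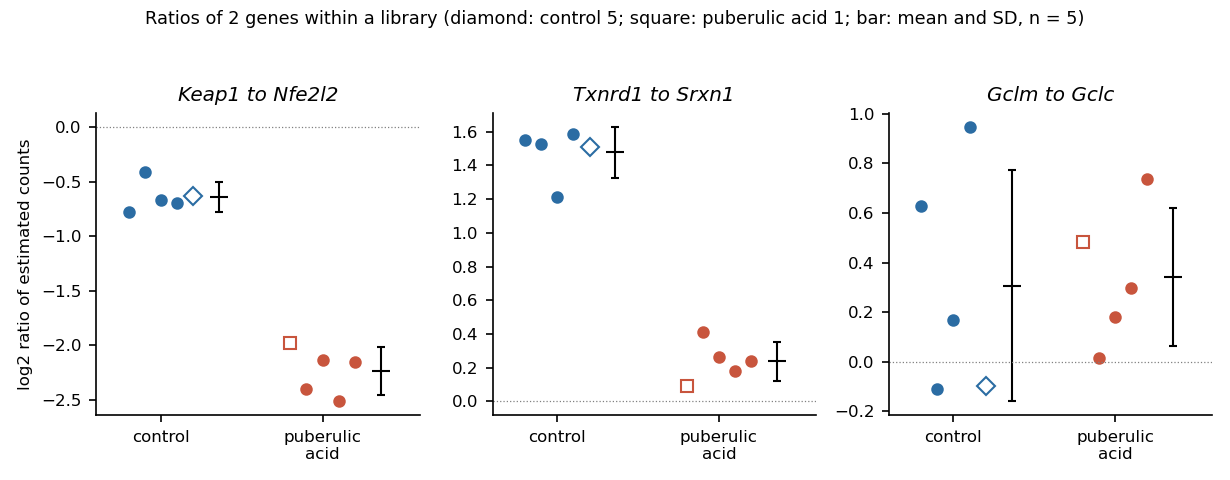
Log2 ratio of the estimated counts of 2 genes within each library (vertical axis), 1 point per library, with the mean and SD. The ratios of Keap1 to Nfe2l2 and of Txnrd1 to Srxn1 are lower in all 5 puberulic acid libraries than in any control, with mean differences of -1.60 and -1.24, and that of Gclm to Gclc overlaps.

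G6pdx (ENSMUSG00000031400) encodes glucose-6-phosphate dehydrogenase, which makes NADPH in the first step of the pentose phosphate pathway. It had 38.6, 35.0, 34.7, 38.0 and 37.7 CPM in control replicates 1 to 5, and 68.4, 74.9, 66.9, 70.6 and 69.2 CPM in puberulic acid replicates 1 to 5. Both groups were narrow and did not overlap, with a log2 fold change of 0.93 ± 0.07 (SE, edgeR adjusted p = 3.81e-07).

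Nqo1 (ENSMUSG00000003849) encodes a quinone reductase that is widely used as a readout of NRF2 activity. It had 92.6, 78.2, 88.5, 86.2 and 92.0 CPM in control replicates 1 to 5, and 58.0, 100, 82.2, 94.7 and 67.2 CPM in puberulic acid replicates 1 to 5. Replicates 2 and 4 of the treated group lay above every control, replicates 1 and 5 below every control and replicate 3 within their range. The log2 fold change was -0.12 ± 0.14 (SE, edgeR adjusted p = 0.459, 95% interval -0.42 to 0.18), so the interval does not hold the rise of Srxn1, Txnrd1, Nfe2l2 or G6pdx. With total-count scaling it was 0.38 (adjusted p = 0.0218), again under the shift of the median gene.

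Osgin1 (ENSMUSG00000074063) encodes an oxidative stress induced growth inhibitor. Control replicates 1 to 5 had 73.3, 69.0, 81.5, 134 and 165 CPM, so that replicates 4 and 5 stood well above the other 3 controls. Puberulic acid replicates 1 to 5 had 60.9, 86.5, 76.0, 84.5 and 80.5 CPM, within or near the range of the 3 lower controls. The log2 fold change was -0.43 ± 0.23 (SE, edgeR adjusted p = 0.123, 95% interval -0.93 to 0.08), and it was 0.08 with total-count scaling (adjusted p = 0.769). Leaving out single controls moved the value from -0.22 without replicate 5 (adjusted p = 0.341) to -0.56 without replicate 2 (adjusted p = 0.0489), which is the only left-out library that brought the gene past the threshold.

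**Figure D3:**
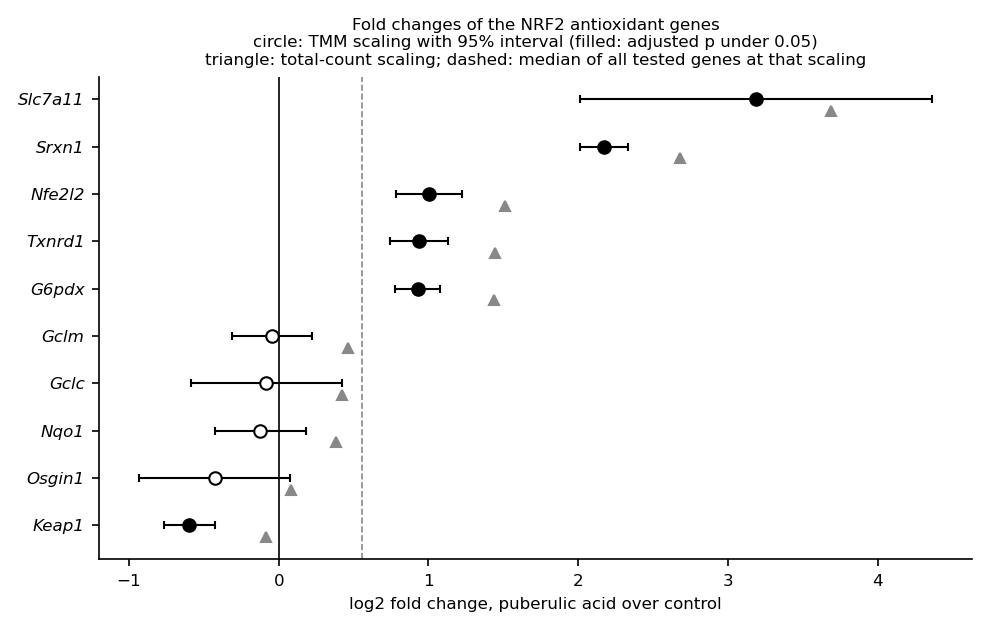
Log2 fold change of each gene, puberulic acid over control (horizontal axis), as a circle with its 95% interval for TMM scaling and as a triangle for total-count scaling, whose median over all tested genes (0.56) is the dashed line. Slc7a11, Srxn1, Nfe2l2, Txnrd1 and G6pdx lie above that line under both scalings, and the triangles of Gclm, Gclc, Nqo1, Osgin1 and Keap1 lie below it.

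In single libraries several of these genes lay high or low together. Control 5 was the highest control for 4 of the 10 genes (Gclc, Txnrd1, Slc7a11 and Osgin1), and 23.2% of all tested genes were highest in that library. For Txnrd1 it barely exceeded control 4 (187.8 against 187.6 CPM), and for Slc7a11 it had 12.5 estimated counts against 11.8. Against the mean of the other 4 controls it had 1.84-fold more Osgin1, 1.41-fold more Gclc and 2.70-fold more Slc7a11, the last from 12.5 estimated counts. Among the 14079 genes with a control mean of at least 1 CPM, 2.56% stood as far above the other controls in that library as Osgin1 did. The other 7 genes differed little there, from 0.928 of the other controls for Nfe2l2 to 1.07 for Nqo1. Without control 5 the called genes kept their calls, with log2 fold changes of 2.17 for Srxn1, 3.58 for Slc7a11 and -0.63 for Keap1.

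In the treated group, replicate 1 was lowest for 7 of the 10 genes, against 32.5% of all tested genes, and replicate 2 was highest for 8 of the 10, against 17.7%. The genes that were not lowest in replicate 1 were Srxn1, Keap1 and G6pdx. Replicate 1 also had the highest summed level of 8 proximal tubule markers of its group (1826 CPM, where the group began at 953 CPM) and the lowest summed level of 5 markers of injured tubules (1593 CPM, where the group reached 2832 CPM), and the lowest sums of leukocyte, fibroblast and proliferation markers (142, 400 and 44.7 CPM). It was also highest of its group for the sums of thick ascending limb (5576 CPM), distal convoluted tubule (527 CPM) and collecting duct markers (318 CPM). How far these differences bear on its low Nqo1, Gclc and Gclm was not tested.

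Levels of different genes can be set side by side only per length, here as CPM per kilobase of the exons annotated in GENCODE vM21, which is approximate because the transcripts in use are not known. In controls Gclc had the highest mean, 90.8, followed by Gclm at 65.4, Nqo1 at 56.3 and Osgin1 at 39.1. The spread of Gclc, from 59.2 to 118, covered the whole range of Gclm, and that of Osgin1, from 25.8 to 61.6, reached into those of Gclc, Gclm, Nqo1 and Txnrd1. Below them came Txnrd1 at 25.3, Srxn1 at 22.8 and Nfe2l2 at 21.6, whose ranges overlapped, then G6pdx at 11.9 and Keap1 at 11.2, which also overlapped, and Slc7a11 at 0.0301. With puberulic acid Srxn1 had the highest mean, 103 CPM per kilobase, within the wide range of Gclc, 53.8 to 117, and Slc7a11 stayed lowest at 0.273. The 4 genes that did not pass the test were the 4 with the highest mean control levels.

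The groups also differed in markers of cell types and of injury, and in bulk kidney tissue fewer cells of a type and less RNA per cell cannot be told apart. The 8 proximal tubule markers were all called lower, and their summed level was 12683 to 16950 CPM in controls and 953 to 1826 CPM with puberulic acid. The 5 injured tubule markers, among them Havcr1, were all called higher, from 10.2 to 22.8 CPM in controls to 1593 to 2832 CPM. Of these, Krt20 and Sox9 had 0.0636 to 0.264 and 0.255 to 0.844 CPM in controls. Both passed the low-count filter through the treated group, so their calls carry little. Of 7 tested leukocyte markers 4 were higher and 0 lower (all 9 listed: 74.8 to 171 CPM in controls, 142 to 449 CPM treated), and the 4 fibroblast markers were all higher (80.6 to 125 against 400 to 1516 CPM). For leukocytes, 6 markers were higher and 0 lower with total-count scaling, and 5 and 0 with upper-quartile scaling. Both proliferation markers were higher. Counts of markers called higher and lower were 0 and 2 of 3 for the thick ascending limb, 0 and 2 of 2 for the distal convoluted tubule, 0 and 4 of 5 for the collecting duct, 0 and 1 of 3 for podocytes and 0 and 1 of 4 for endothelium. With total-count scaling these became 1 and 1, 0 and 1, 0 and 3, 0 and 0, and 0 and 0. No marker on any list was at 0 in all libraries of a group. The part of these shifts in the changes of the 10 genes was not tested.

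The other genes of the pathway were read from 8 lists with 68 genes, of which 65 were tested. Of these, 21 were called higher, 26 lower and 18 did not pass, with a median log2 fold change of -0.09. Over all tested genes 34.2% were higher and 31.1% lower. With total-count scaling 36 were higher and 19 lower, against 56.4% and 15.5% of all tested genes. These shares are the background for each list below, and no list was tested against it. The lists did not move as one, and the plot of list genes shows the spread within each.

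**Figure D4:**
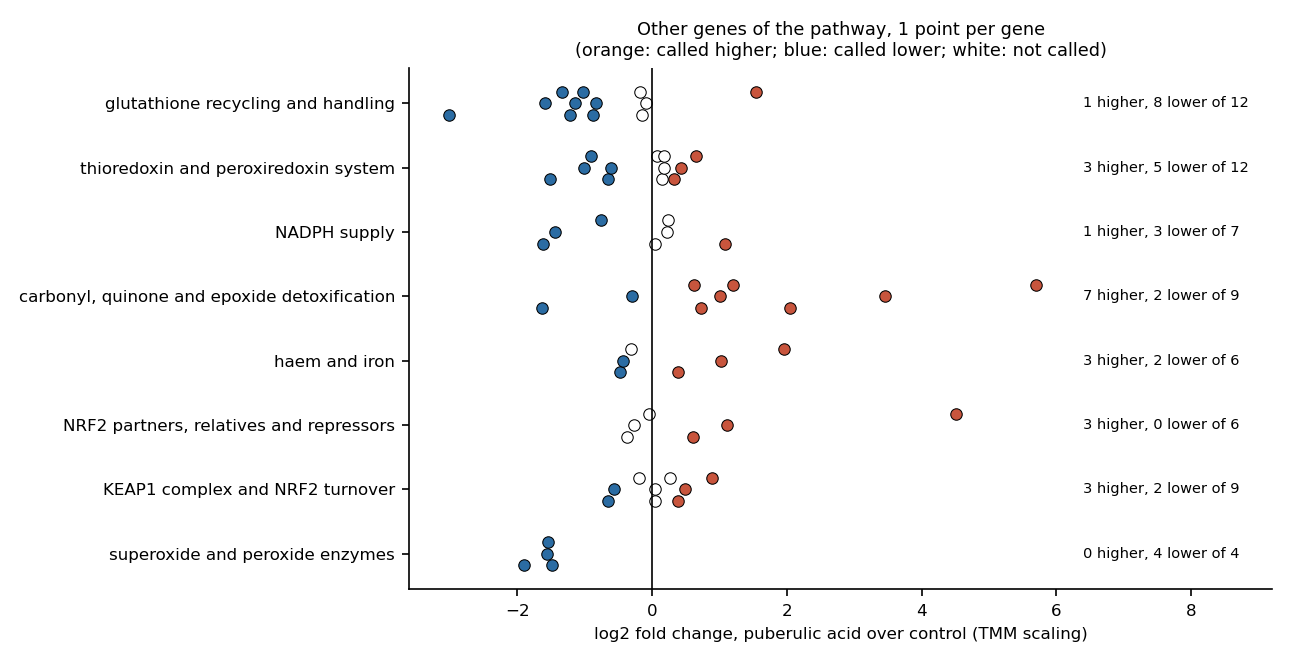
Log2 fold change of each tested gene (horizontal axis, TMM scaling, 1 point per gene) in 8 lists of genes that work with or under NRF2, coloured by call, with the counts at the right. The 4 superoxide and peroxide enzymes are all lower, and 7 of 9 carbonyl, quinone and epoxide genes are higher. Aox1, among the latter, and Chac1 passed the low-count filter through the treated group.

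Of 9 tested enzymes that detoxify carbonyls, quinones and epoxides, 7 were higher and 2 lower, where 34.2% and 31.1% of all tested genes were. The 7 were Akr1b8, Cbr3, Aox1, Ephx1, Cbr1, Ptgr1 and Ugdh, all but Akr1b8 named after their values were seen. Aox1 was low in controls, at 0.390 to 0.955 CPM, against 1.83 to 3.60 CPM in treated libraries. It passed the low-count filter through the treated group, so its call carries little. Ptgr1 passed narrowly (adjusted p = 0.0449) with overlapping ranges, and puberulic acid 1, at 10.4 CPM, lay below every control (11.8 to 20.2 CPM). With total-count scaling 8 were higher and 1 lower, where 56.4% of all tested genes were higher. Akr1b8, an aldo-keto reductase, averaged 1.93 ± 0.519 CPM in control and 101 ± 15.4 CPM in treated libraries (SD over 5 libraries each), with a log2 fold change of 5.70 ± 0.19 (SE, edgeR adjusted p = 1.69e-09). Akr1a1, the abundant general aldehyde reductase, was lower, at 685 ± 80.8 CPM against 2127 ± 167 in control (SD over 5 libraries each), with a log2 fold change of -1.64. These families hold similar copies, and how shared reads were divided among them is not stated, so values of single aldo-keto and carbonyl reductases are uncertain.

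Among haem and iron genes, 3 of 6 were higher and 2 lower, and 3 higher and 0 lower with total-count scaling. Hmox1, the inducible haem oxygenase and a target of both NRF2 and the repressor BACH1, had 22.3, 30.4, 27.0, 36.6 and 52.2 CPM in control replicates 1 to 5 and 79.4, 154, 134, 175 and 112 CPM in puberulic acid replicates 1 to 5. All treated libraries lay above all controls, with control 5 the highest control and puberulic acid 1 the lowest treated, and the log2 fold change was 1.96 ± 0.25 (SE, edgeR adjusted p = 2.87e-05). Fth1, the ferritin heavy chain, had a log2 fold change of -0.48 (adjusted p = 0.00148), which became 0.03 with total-count scaling.

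NADPH supply divided, also within the oxidative branch of the pentose phosphate pathway. Pgd, which like G6PDX makes NADPH there, was higher, at 235 ± 31.4 CPM against 111 ± 3.68 in control (SD over 5 libraries each), with a log2 fold change of 1.09 ± 0.10 (SE, edgeR adjusted p = 1.75e-06). Pgls, the lactonase that acts between these enzymes, had a log2 fold change of -0.76 (edgeR adjusted p = 4.94e-05), and was named after its values were seen. The NADP-linked enzymes outside that pathway fell, Me1 by 1.45 and Idh1 by 1.62 on the log2 scale (adjusted p = 2.29e-06 and 2.23e-06). Tkt and Taldo1, of the non-oxidative branch, had log2 fold changes of 0.04 and 0.22, did not pass the test, and were called higher with total-count scaling. Taldo1 was also called higher with upper-quartile scaling (0.32, adjusted p = 0.0384) and without puberulic acid 1 (0.29, adjusted p = 0.00925). Of 7 tested genes, 1 was higher and 3 lower, or 4 and 3 with total-count scaling. The falls stood beside that of the 8 proximal tubule markers, whose part in them was not tested. Nnt matched 2 gene identifiers and was left out.

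In the thioredoxin and peroxiredoxin list, 3 of 12 genes were higher and 5 lower, or 7 and 3 with total-count scaling. Txnrd3, a relative of Txnrd1, was the largest called rise at 0.65 in log2 (adjusted p = 2.27e-05), and Prdx5, a peroxiredoxin found in mitochondria and peroxisomes, the largest called fall with -1.51 (adjusted p = 6.59e-08). Txn1, the substrate of TXNRD1, and Prdx1, a substrate of sulfiredoxin, had 0.15 and 0.07 (adjusted p = 0.502 and 0.648). Both were called higher with total-count scaling, and Txn1 also without control 1 (0.36, adjusted p = 0.0170).

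Of 12 genes of glutathione handling, 8 were lower and 1 higher, or 8 and 3 with total-count scaling, where the shares of all tested genes that were lower were 31.1% and 15.5%. Ggt1, which breaks down glutathione at the tubule brush border, was lower, at 150 ± 27.0 CPM against 1207 ± 122 in control (SD over 5 libraries each), with a log2 fold change of -3.01 ± 0.13 (SE, edgeR adjusted p = 1.20e-08). Chac1, which degrades glutathione inside the cell, was the 1 gene called higher, from 1.17 to 3.45 CPM on average with overlapping ranges (log2 fold change 1.54, adjusted p = 0.00724). Control 2 had 2.85 CPM of Chac1, where the other 4 controls had 0.519 to 1.08 CPM, and without it the log2 fold change was 2.18 (adjusted p = 0.000121). Chac1 passed the low-count filter through the treated group, so its call carries little. Gsr, which recycles oxidised glutathione, had -0.09 in log2 (adjusted p = 0.408), and Slc3a2, the heavy chain that SLC7A11 pairs with, had -0.18 (adjusted p = 0.464). Control 5 held 288 CPM of Slc3a2, where the other 4 controls had 101 to 169 CPM. The falls in this list stood beside the fall of all 8 proximal tubule markers, from 12683 to 16950 CPM in controls to 953 to 1826 CPM, and the part of that shift in them was not tested.

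All 4 superoxide and peroxide enzymes were lower under both scalings. Cat, the peroxisomal catalase, had a log2 fold change of -1.90 ± 0.09 (SE, edgeR adjusted p = 1.68e-08), at 361 ± 36.1 CPM against 1345 ± 50.8 in control (SD over 5 libraries each). Sod3, the extracellular superoxide dismutase, had the smallest fall of the 4, -1.49. These falls stood beside the fall of all 8 proximal tubule markers described above, whose part in them was not tested.

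Of the small MAF partners of NRF2, Maff and Mafk were higher and Mafg did not pass the test. Maff averaged 2.90 ± 0.936 CPM in control and 66.0 ± 11.9 CPM in treated libraries (SD over 5 libraries each), with a log2 fold change of 4.50 ± 0.22 (SE, edgeR adjusted p = 1.77e-08), and Mafk, named after its values were seen, rose by 1.12. Mafg, the third small MAF, had -0.27 (adjusted p = 0.116), and passed the threshold without control 4 (-0.35, adjusted p = 0.0499) or without puberulic acid 2 (-0.37, adjusted p = 0.0481). Bach1, which competes with NRF2 at AREs, rose by 0.61 in log2 (adjusted p = 0.000333). Of 6 tested genes in this list, 3 were higher and 0 lower, or 4 and 0 with total-count scaling.

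In the list of the KEAP1 complex and NRF2 turnover, 3 of 9 genes were higher and 2 lower, or 7 and 0 with total-count scaling. Cul3, the scaffold of the ligase, fell with a log2 fold change of -0.57 (adjusted p = 7.33e-05), close to that of Keap1, and like Keap1 it lost its call with total-count scaling (-0.06, adjusted p = 0.543). Sqstm1, the autophagy receptor p62 that binds KEAP1, had 0.48 (adjusted p = 0.000251). Of the enzymes of the KEAP1-independent route of NRF2 degradation, the kinase Gsk3b had 0.88 (adjusted p = 1.89e-06) and Btrc, a substrate adaptor, had -0.66 (adjusted p = 0.000172), which became -0.15 (adjusted p = 0.249) with total-count scaling. Fbxw11, the related adaptor, had 0.26 (adjusted p = 0.170), and was named after its values were seen.

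The genes with the pattern closest to the median of the 10, by root mean square difference of log2(CPM + 1) centred on the control mean over the 10 libraries, were Prpf38b (0.0743), Gtpbp6 (0.0865), Grb2 (0.0911), Rsl1d1 (0.0948) and Ccm2 (0.0949). Their log2 fold changes ran from 0.42 for Grb2 to 0.48 for Gtpbp6. That median includes Slc7a11, without which the median log2 fold change of the genes was -0.04, and the 10 genes moved both ways, so the likeness describes the median and not its members. The median profile was 0.09 in puberulic acid 1 and 0.44 to 0.71 in the other 4 treated libraries.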

How the data were processed

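Poly(A) RNA of kidney tissue was measured in 20 labelled samples. The authors deposited a table of estimated counts per gene with fractional values and no normalization stated. Per the submitters' processing notes, fastp 0.22.0, FastQC 0.12.1, MultiQC 1.28, Salmon 1.10.3, DESeq2 and the build GRCm39 were used, in roles not given there, and the annotation is not given in the sources used here. Gene symbols were matched for 51344 of 55822 identifiers. Columns named with 0 or pa and a number were taken as the control and puberulic acid samples. The other 10 sample columns were not used, because their names do not show the lot.

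Estimated counts were rounded, filtered with filterByExpr and scaled with TMM factors (0.827 to 0.848 in controls, 1.17 to 1.26 with puberulic acid). The genome-wide test was edgeR 4.0.16 (glmQLFit, glmQLFTest; limma 3.58.1, R 4.3.3) on 10 libraries, with Benjamini-Hochberg adjustment over 16266 genes. Each standard error was derived from the fitted log2 value and its F statistic. The procedure was also run on simulated counts with far fewer changed genes than were called here, equally many up and down. That run does not bear on the choice of scaling. Ratios used counts plus 0.5 and exact permutation over 252 assignments. Total-count scaling used the summed counts of the genes tested. Alternatives were RLE, upper-quartile and total-count scaling, no filter, DESeq2 1.42.0, the replicate number as a block, a pseudocount of 1 and leaving out each library. numpy 2.4.6, scipy 1.17.1, pandas 2.3.3 and matplotlib 3.10.9 were used. The 10 genes and the lists were chosen with earlier results of these data known. Genes named were the 10, 15 others taken whatever their values, and the called gene with the highest and the lowest fold change in each list at a mean of at least 1 CPM. The labels do not tie each library to its own mouse, so p-values measure the spread between libraries, which may be technical in part. The promoter windows are from RefSeq on GRCm38.p6, a build other than that of the counts, so coordinates are given only for the promoter stretches, on that build.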

Additional observations from a re-analysis of the deposited data

Results flagged for a closer look

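Levels and ratios were searched, in sets of 5 libraries, for a highest or lowest library that stood away from the next by over 0.71 of the whole spread. This was met in 2 of 26 sets, and chance alone meets it in about 5%. Txnrd1 in puberulic acid 2 was 401 CPM, a gap of 0.721 of the range, and all 5 treated libraries lay above all controls with or without it. The log2 ratio of Txnrd1 to Srxn1 in control 3 was 1.21, the lowest control, a gap of 0.783 of the range, and it too lay above all treated values.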

How the results depend on the processing

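The calls of Srxn1, Slc7a11, Nfe2l2, Txnrd1 and G6pdx kept their direction and their side of the threshold in all 16 alternatives, and Keap1 in all but total-count scaling. Every alternative but the fit with no filter used the low-count filter, which Slc7a11 passed through the treated libraries. The calls of Slc7a11 in those fits carry little. That scaling called 9179 genes higher and 2526 lower over the whole table, 0 of the 10 genes lower and 36 of the other pathway genes higher. It turned the log2 fold changes of Nqo1, Gclc, Gclm and Osgin1 to 0.38, 0.42, 0.47 and 0.081, and those of Gsr, Slc3a2, Mafg and Fth1 to 0.42, 0.32, 0.24 and 0.028. Upper-quartile scaling gave 0.015 for Gclc, 0.054 for Gclm and 0.0071 for Gsr. Across fits that each left out 1 library, log2 fold changes ran from -0.24 to 0.022 for Gclc, -0.14 to 0.034 for Gclm, -0.045 to 0.12 for Prdx1, -0.077 to 0.11 for Tkt and -0.34 to 0.053 for Slc3a2. Between 1 and 2 of the 10 genes were then called lower, the second being Osgin1 without control 2.

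Same-numbered samples had correlations of deviations from -0.168 to 0.020, so the numbers do not pair them. With the replicate block 10325 genes and 6 of the 10 were called. The ratios of Keap1 to Nfe2l2 (-1.60) and Txnrd1 to Srxn1 (-1.24) had adjusted p = 0.0938 in an exact sign-flip permutation over 5 pairs, whose smallest p is 0.0625. The difference in the ratio of Gclm to Gclc ran from -0.069 to 0.20 when single libraries were left out. Of the 10 genes, depth limits Slc7a11 most, with 0 to 12.5 control counts. Of 416 values of the other named genes under alternatives, 395 kept direction and side of the threshold.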
